A study of Mus musculus with 5 samples.

Results

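The 41 genes described here encode the contractile filaments, the Z-disc, the calcium store and the energy buffers of heart muscle cells. They were taken by symbol from a deposited table of 24062 genes of mouse mitral valve leaflets, and all 41 were found. The study sequenced leaflet RNA to follow the transcriptome after loss of Ift88, which encodes a protein of the transport machinery that builds cilia. By their titles 2 libraries are wild type (WT) and 3 are knockout (KO), and this grouping is used throughout. NfatC1Cre(+) stands in all 5 genotype descriptions, so the controls carry Cre too. These descriptions give Ift88f/f, the floxed allele, to the WT libraries and Ift88+/+ to the KO libraries, the reverse of the titles. The Nfatc1 gene is known from the endocardium and valve endothelium. No age is given, nor whether each library is a different animal, so a p-value reflects the spread among these libraries alone, and that spread may be technical. Levels are given below as WT replicate 1 and WT replicate 2, then KO replicates 1, 2 and 3.

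In heart muscle, myosin heavy and light chains form the thick filament, and actin with tropomyosin and the troponin complex forms the thin filament. Titin spans from the Z-disc to the middle of the sarcomere, the repeating unit of contraction. Calcium leaves the sarcoplasmic reticulum through the ryanodine receptor and is pumped back by the ATPase SERCA2, which the small proteins phospholamban and sarcolipin restrain. Atrial and ventricular muscle use different myosin light chains, and the slow skeletal troponin I and the beta myosin heavy chain are known as forms of the fetal mouse ventricle. The leaflet itself is built of interstitial and endothelial cells, and muscle reaches it from the atrium and at its attachments.

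Total counted reads lay between 23361414 and 53789026 per library. Ift88, the check of the labels, stood at 7.53 and 19.8 CPM (read counts scaled to a common library size with TMM factors) (WT), then 3.0, 3.91 and 0.409 (KO), so its level went with the titles. Its log2 fold change of KO against WT was -2.48 (SE 1.13, adjusted p = 0.81, edgeR quasi-likelihood test). A replicate number is only a name and pairs nothing.

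Heart muscle transcripts were abundant in 4 libraries and scarce in WT replicate 2. The 41 members took 9.14% of all counted reads in WT replicate 1 and 0.0612% in WT replicate 2. In KO replicates 1, 2 and 3 they took 6.26, 4.85 and 6.50%. Exact Clopper-Pearson 95% intervals of these shares reached at most 0.0101 percentage points to either side, and they cover counting error only. The summed level was 109123 CPM in WT replicate 1 and 571 in WT replicate 2, a 191-fold difference within the WT group. Among the KO libraries it was 61990, 46080 and 62147 CPM, with the highest 1.35 times the lowest. All 3 KO libraries thus lay between the WT libraries. The group means were 54847 ± 76758 CPM (SD, n = 2) in WT and 56739 ± 9231 (SD, n = 3) in KO. In bulk RNA, fewer muscle cells and less muscle RNA per cell cannot be told apart.

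**Figure D1:**
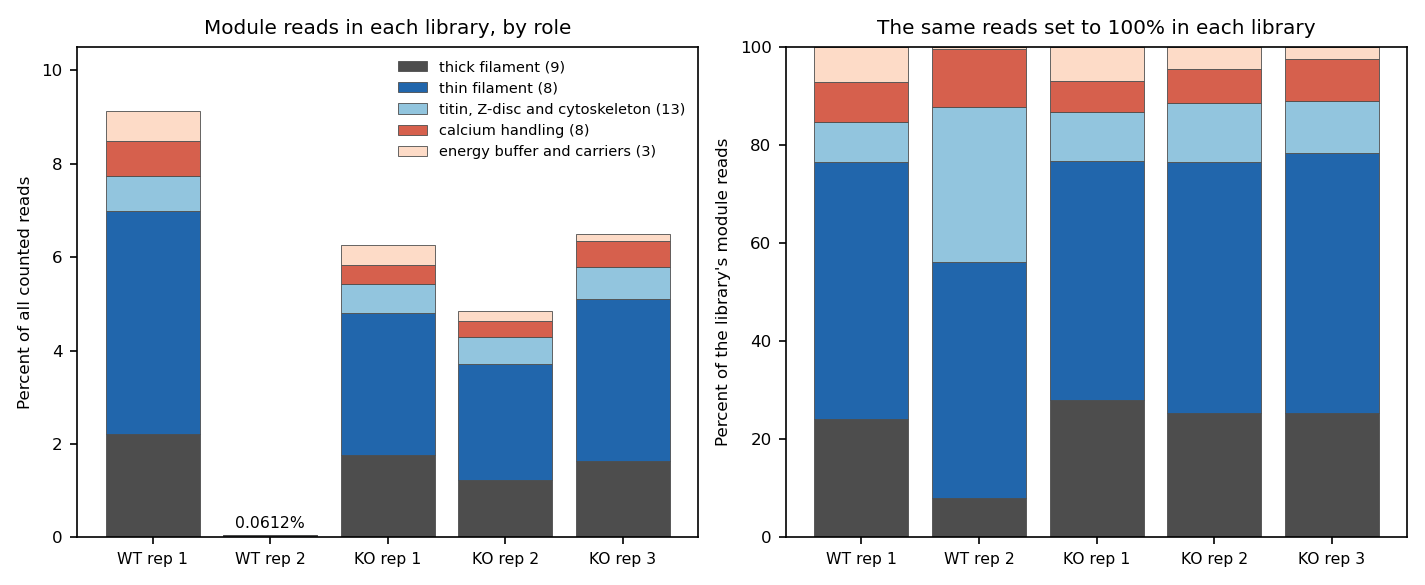
Left, reads of the 41 members as a percent of all counted reads in each library, stacked by role with the number of members in parentheses. Right, the same reads set to 100% in each library. WT replicate 2 stands at 0.0612% against 4.85 to 9.14% in the other libraries. Its module reads hold a larger part of titin, Z-disc and cytoskeleton genes (31.6%) than theirs (8.27 to 12.1%). Most of that part is Cryab, at 26.8% of the module reads in WT replicate 2 and 0.83 to 1.65% in the other libraries.

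WT replicate 2 was the lowest of the 5 libraries for 39 of the 41 members (95.1%), a position it held for 22.2% of all 14244 genes tested. The level in WT replicate 1 was over 100 times that in WT replicate 2 for 30 members, against 2.46% of all genes tested, with a library at 0 set to 3 reads. The median ratio over the members was 348, and over all genes tested it was 1.01. There were 8 members without a read in WT replicate 2, where 3 reads correspond to 0.052 CPM. These were Mb, Myoz2, Myom2, Trdn, Xirp1, Mypn, Hrc and Lmod2. Mb, which encodes the oxygen carrier myoglobin, was at least 26373-fold higher in WT replicate 1, and Myoz2, a Z-disc protein that binds calcineurin, at least 13847-fold.

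The WT replicate 2 reads that did fall in the module came largely from a few genes. Cryab, a small heat shock protein that protects desmin and titin, made up 26.8% of them, Tpm1, which encodes alpha tropomyosin, 25.2%, and Atp2a2, which encodes SERCA2, 11.4%. In the other libraries Actc1, which encodes cardiac alpha actin, led with 26.1 to 31.0% of the module reads. Tpm1, Cryab and Atp2a2 are known to be expressed in cells other than muscle as well. Per kilobase of transcript, Cryab was the highest member in WT replicate 2 at 137 CPM per kilobase, and Actc1 was the highest in WT replicate 1 at 21210 and in KO replicates 1, 2 and 3 at 10987, 9712 and 11951.

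**Figure D2:**
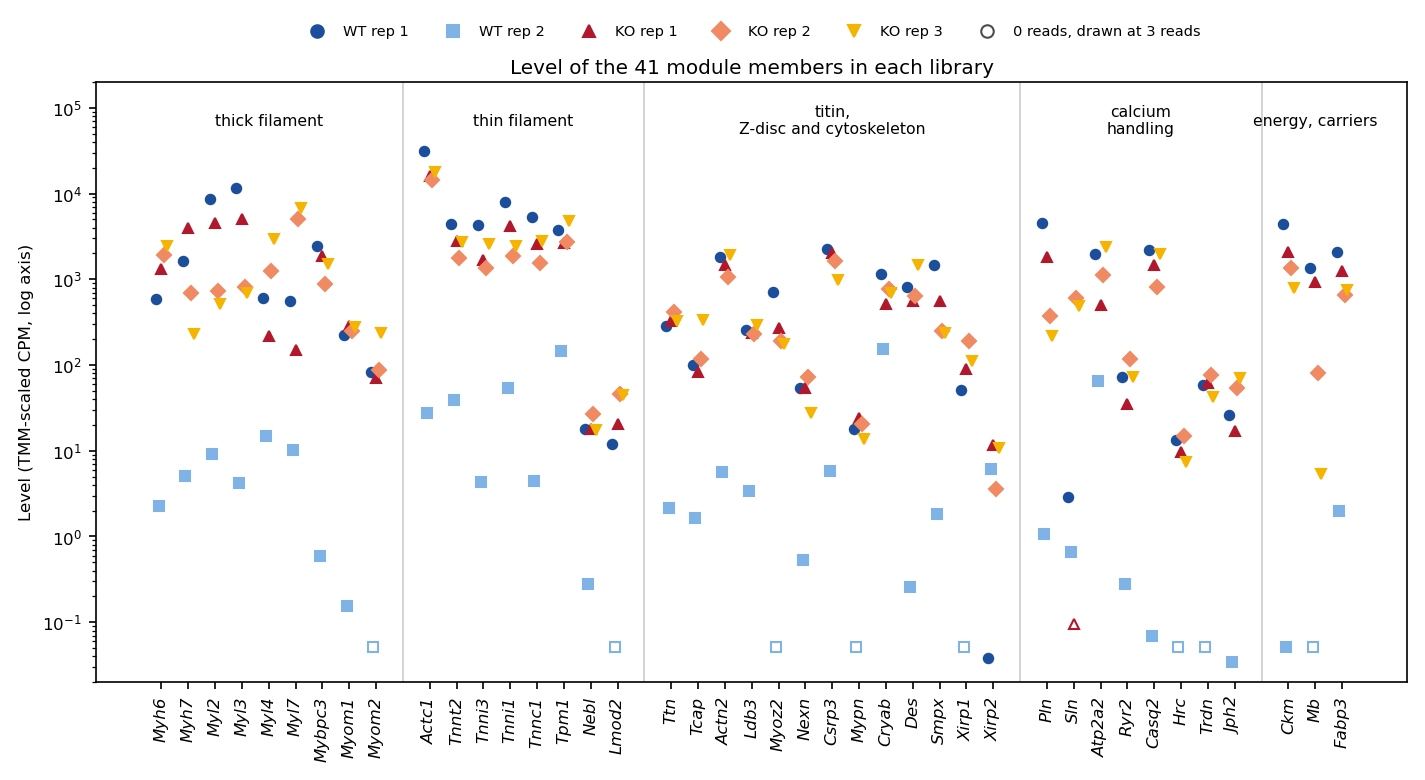
Level of each of the 41 members in the 5 libraries, as CPM with TMM factors (log scale), grouped by role. Each point is 1 library, and open symbols mark members with 0 reads, drawn at the level of 3 reads. WT replicate 2 is the lowest library for 39 members, with Xirp2 and Sln as the exceptions, and the spread between KO libraries is widest for Mb, Sln, Myl7, Myh7 and Myl4.

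No member passed the comparison of KO with WT. The edgeR quasi-likelihood test called 0 of the 41, which all passed the filter on low counts, and 0 of all 14244 genes (0.0%). At an unadjusted p under 0.05 there were 0 members, against 4.57% of all genes higher in KO and 1.27% lower. The smallest unadjusted p of a member was 0.054 (Sln, adjusted p = 0.81). The edgeR likelihood-ratio test, limma-voom and DESeq2 also called 0 members. At an unadjusted p under 0.05 the likelihood-ratio test had 2 of 41 members (7.37% of all genes tested) and DESeq2 had 1 (9.54%), so both shares were below that of all genes. limma-voom had 17 of 41 (6.91% of all genes tested), a share well above it. The authors' deposited table likewise gives none of the 41 an adjusted p under 0.05 (lowest 0.534), against 1.43% of its genes with an adjusted p. It lists 28 positive log2 fold changes among the 41, between -0.46 and 1.21. The standard errors of the members' log2 fold changes lay between 0.785 and 3.25.

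The fold changes of the members depended on which WT library was in the fit and on the tool. With all libraries 30 of 41 were positive (49.4% of all genes tested), with a median log2 fold change of 0.79 against -0.01 for all genes. On the same libraries limma-voom gave 41 of 41 positive (53.2% of all genes) and a median of 4.27. Without WT replicate 2 the median was -0.16, against 0.25 for all genes, and 18 of 41 were positive. Without WT replicate 1 it was 8.77, all 41 were positive, and 29 passed (245 of 15340 genes, 1.6%). Each of these fits holds a lone WT library, which is assumed to vary like the KO libraries, so the spread within WT is missing from its calls. The titles of WT replicate 1, KO replicate 1 and KO replicate 2 hold a common code, which no label calls a batch. Among them the median was -0.31, against 0.23 for all genes, and 16 of 41 were positive. With that code as a term over all 5 libraries, a fit chosen after seeing the data, the median was 1.61 and 39 of 41 were positive (52.5% of all genes), with 0 calls and 0 members at an unadjusted p under 0.05 (5.22% of all genes). Set side by side, WT replicate 1 lay above all KO libraries for 17 members, below all for 6 and within their range for 18.

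**Figure D3:**
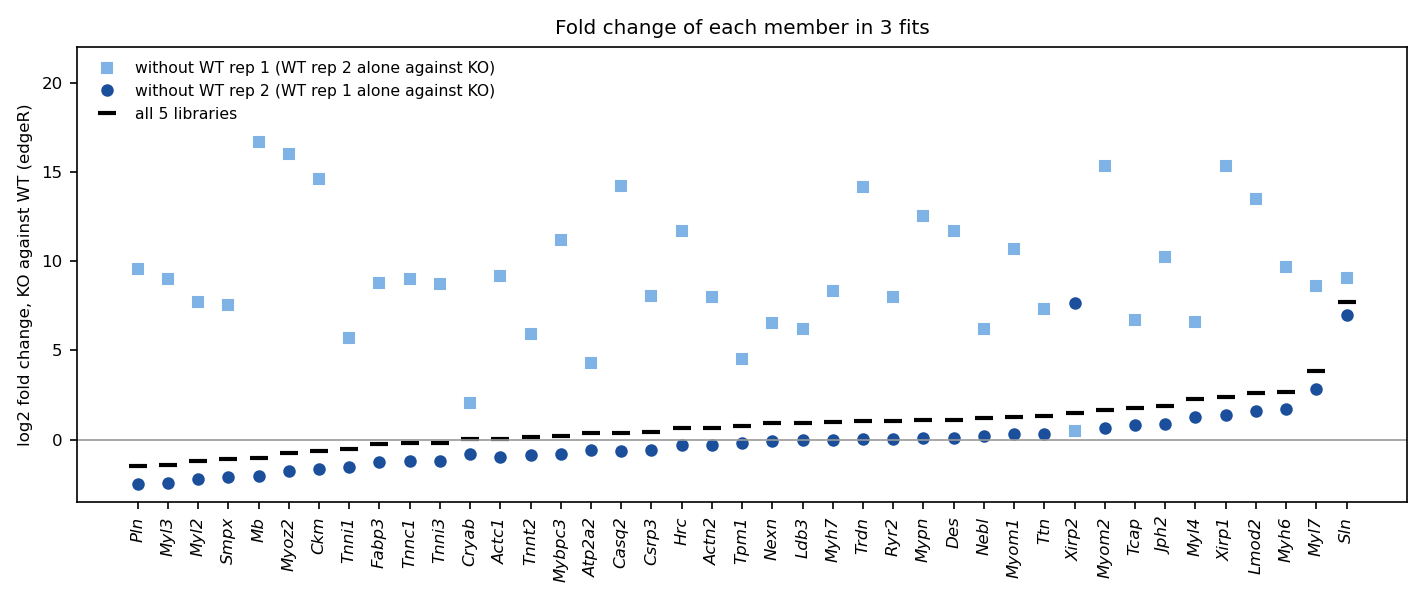
log2 fold change of KO against WT for the 41 members, ordered by the value with all 5 libraries (dashes). Light squares leave out WT replicate 1 and dark circles leave out WT replicate 2. The squares lie between 0.47 and 16.7 and the circles between -2.47 and 7.68. Squares of members with 0 reads in WT replicate 2 depend on the prior count of the fit.

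For 5 members (12.2%) the lowest KO library exceeded the higher WT library, a share near the 13.5% of all genes tested. These were Myh6, Myom1, Lmod2, Ttn and Xirp1. Ttn, which encodes titin, stood at 285 and 2.13 CPM (WT), then 327, 412 and 325 (KO). Its KO libraries were close to each other and to WT replicate 1. The reverse order held for 0 members and for 11.1% of all genes tested. The remaining 36 members overlapped between the groups.

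The myosin light chains divided the libraries. Myl7 and Myl2 encode the regulatory light chains of atrial and ventricular muscle. Myl7 stood at 556 and 10.1 CPM (WT), then 149, 5079 and 6867 (KO). Myl2 stood at 8682 and 9.18 CPM (WT), then 4501, 723 and 512 (KO). KO replicates 2 and 3 were the high libraries for Myl7, and WT replicate 1 and KO replicate 1 for Myl2. Myl4 and Myl3 encode the essential light chains of atrial and ventricular muscle. Myl4 stood at 601 and 14.7 CPM (WT), then 217, 1239 and 2946 (KO). Myl3 stood at 11594 and 4.24 CPM (WT), then 4990, 819 and 685 (KO). The same libraries were high for each atrial chain, and the same libraries for each ventricular chain. WT and KO overlapped for all 4 genes.

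Log2 fold changes of the atrial chains were 3.83 (SE 2.08, adjusted p = 0.825) for Myl7 and 2.25 (SE 1.63, adjusted p = 0.881) for Myl4. For the ventricular chains they were -1.18 (SE 1.98, adjusted p = 0.961) for Myl2 and -1.42 (SE 2.10, adjusted p = 0.956) for Myl3. None passed, and both ventricular values turned positive without WT replicate 1, to 7.69 and 8.98. Within the KO group, Myl7 was 46.2 times higher in KO replicate 3 than in KO replicate 1, while Myl2 was 8.79 times lower there.

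Ratios within a library do not depend on how libraries are scaled. Per kilobase, Myl7 made up 8.79% of Myl7 and Myl2 in WT replicate 1 and 4.74% in KO replicate 1. It made up 91.4% in KO replicate 2 and 95.3% in KO replicate 3. In WT replicate 2, on 585 and 530 reads, it made up 62.5% (exact 95% interval 59.6 to 65.2%). Of Myl4 and Myl3 together, Myl4 made up 4.90 and 77.5% (WT), then 4.14, 60.0 and 81.0% (KO). The atrial forms thus led in both pairs in KO replicates 2 and 3 and in the few reads of WT replicate 2, and the ventricular forms led in WT replicate 1 and KO replicate 1. Intervals of the pair shares reached at most 0.525 percentage points outside WT replicate 2 and 10.7 within it.

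**Figure D4:**
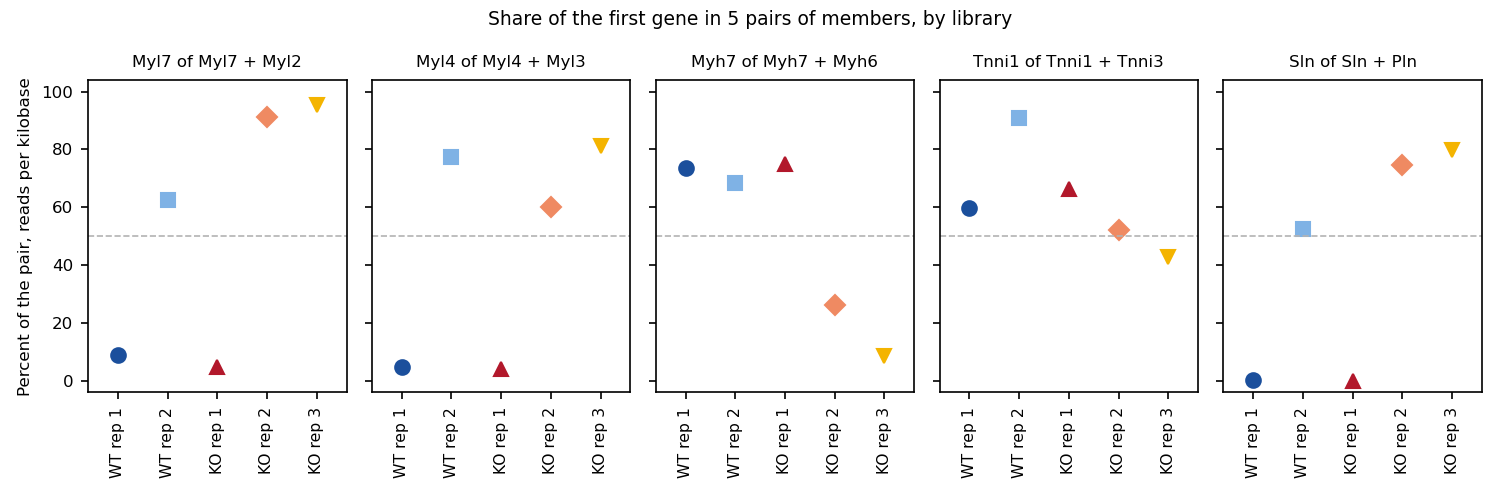
Share of the first gene in 5 pairs of members, in reads per kilobase of transcript, for each library (1 point each). The dashed line marks equal levels. Myl7, Myl4 and Sln are the minor partner in WT replicate 1 and KO replicate 1 and the major partner in KO replicates 2 and 3, and the Myh7 share runs the other way in these libraries.

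The RefSeq table of promoter windows (GRCm38.p6) holds 33 of the 41 members, in 45 windows. Cryab, Sln, Atp2a2, Trdn, Myom2, Nexn, Xirp1 and Tcap were not among them. The 250 bases before the start were searched on both strands for the CArG box, which serum response factor binds, for the MEF2 site, and for the muscle CAT element CATTCC, which TEAD factors bind. A CArG box was in 15.6% of the members' windows and in 1.47% of all 32851 windows. The MEF2 site was in 11.1 and 2.92%, and CATTCC in 9 of the 45 windows and 12.6% of all. Genes with several starts add overlapping windows to these shares. Actc1, the most abundant member per kilobase in 4 libraries, and Myl7 and Myl3, which were high in different libraries, each hold a CArG box. Their sequences are shown 5′ to 3′ on the gene's strand and end at the base before the start, with CArG boxes and CATTCC or its reverse complement in capitals. They lie at chr2:114052876-114053125 (minus strand), chr11:5898783-5899032 (minus) and chr9:110763428-110763677 (plus).
Actc1: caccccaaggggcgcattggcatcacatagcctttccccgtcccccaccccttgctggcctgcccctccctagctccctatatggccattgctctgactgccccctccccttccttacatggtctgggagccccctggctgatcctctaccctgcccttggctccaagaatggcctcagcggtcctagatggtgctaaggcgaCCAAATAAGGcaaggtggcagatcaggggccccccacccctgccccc
Myl7: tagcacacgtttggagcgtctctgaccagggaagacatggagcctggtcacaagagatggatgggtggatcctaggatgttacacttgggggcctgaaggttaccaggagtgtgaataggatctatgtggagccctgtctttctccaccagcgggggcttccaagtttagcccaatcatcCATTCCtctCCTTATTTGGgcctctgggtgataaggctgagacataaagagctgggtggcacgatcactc
Myl3: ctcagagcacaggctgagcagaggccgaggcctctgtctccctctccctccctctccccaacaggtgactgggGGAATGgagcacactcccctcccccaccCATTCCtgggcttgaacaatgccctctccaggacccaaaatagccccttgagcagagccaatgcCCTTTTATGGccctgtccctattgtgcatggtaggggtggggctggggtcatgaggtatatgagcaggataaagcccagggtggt
The CArG box begins 47 bases before the start in Actc1, 61 in Myl7 and 85 in Myl3. Myl7 holds 1 CATTCC, 70 to 65 bases before the start, and Myl3 holds 1 on each strand. The light chains that were high in different libraries thus share these letters, which mark no measured binding.

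Myosin heavy chains followed the light chains in part. Myh6 and Myh7, which encode the alpha and beta heavy chains, lie side by side on the minus strand of chromosome 14 (54941921 to 54966927 and 54970684 to 54994626, GRCm38). They are near-identical in long stretches, so some of their reads may have been split or lost in counting. Myh7 stood at 1641 and 5.04 CPM (WT), then 4009, 689 and 232 (KO). Myh6 stood at 583 and 2.29 CPM (WT), then 1310, 1900 and 2460 (KO). Per kilobase, Myh7 made up 73.4 and 68.4% of both chains in WT and 75.0, 26.2 and 8.46% in KO. KO replicate 1 was the library with the highest Myh7 level, above WT replicate 1. The log2 fold changes were 0.998 (SE 1.98, adjusted p = 0.973) for Myh7 and 2.69 (SE 1.77, adjusted p = 0.866) for Myh6. That of Myh7 was -0.87 without KO replicate 1.

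The other thick filament genes varied less outside WT replicate 2. Mybpc3, which encodes cardiac myosin binding protein C, stood at 2459 and 0.589 CPM (WT), then 1848, 871 and 1526 (KO) (log2 fold change 0.20, SE 2.03, adjusted p = 0.995). Myom1, a protein of the M-line, had 221 and 0.156 CPM (WT), then 289, 248 and 277 (KO), the narrowest KO spread of all members with a ratio of highest to lowest of 1.16. Its relative Myom2 had 82.4 and 0 CPM (WT), then 71.5, 86.5 and 237 (KO).

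Thin filament genes together carried about the same part of the module in every library, between 48.1 and 53.1% of its reads. Their make-up differed in WT replicate 2, where Tpm1 held 25.2% of the module reads and Actc1 4.86%. In the other libraries Actc1 held 26.1 to 31.0% and Tpm1 3.48 to 7.76%. Actc1 stood at 31243 and 27.7 CPM (WT), then 16184, 14306 and 17603 (KO). WT replicate 1 was the highest library and the KO libraries lay within 1.23 times of each other. Its log2 fold change was 0.04 (SE 1.83, adjusted p = 0.999), and with other scaling factors (DESeq2 size factors) it was -0.036. Actc1 shares sequence with the other actin genes. Tnnc1, which encodes the calcium-binding troponin C of heart and slow muscle, had 5290 and 4.43 CPM (WT), then 2578, 1542 and 2801 (KO). Tnnt2, which encodes cardiac troponin T, had 4396 and 39.4 CPM (WT), then 2828, 1764 and 2728 (KO).

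The 2 troponin I genes were both detected in every library. Tnni1, the slow skeletal form, stood at 7993 and 54.3 CPM (WT), then 4187, 1844 and 2412 (KO). Tnni3, the cardiac form, stood at 4281 and 4.30 CPM (WT), then 1683, 1350 and 2568 (KO). Per kilobase, Tnni1 made up 59.7 and 90.9% of both in WT and 66.4, 52.0 and 42.7% in KO, so KO replicate 3 was the 1 library in which Tnni3 led. The log2 fold change of Tnni1 was -0.52 (SE 1.49, adjusted p = 0.984), and it was 5.67 without WT replicate 1.

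Tpm1 was among the members least reduced in WT replicate 2, with 3798 and 144 CPM (WT), then 2683, 2701 and 4822 (KO) (log2 fold change 0.79, SE 1.17, adjusted p = 0.956). The genes Nebl and Lmod2, of thin filament length, were far lower. Nebl, which encodes nebulette, had 18.0 and 0.277 CPM (WT), then 18.2, 26.7 and 17.6 (KO). Lmod2, which encodes the actin nucleator leiomodin 2, had 12.1 and 0 CPM (WT), then 20.4, 46.0 and 44.4 (KO).

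Of the 13 genes of titin, Z-disc and cytoskeleton, Ldb3 was similar in WT replicate 1 and the KO libraries. The level in WT replicate 1 was 1.72 times that in KO replicate 2 for Actn2. For Csrp3 it was 2.29 times that in KO replicate 3. Actn2, which encodes the Z-disc cross-linker alpha actinin 2, stood at 1840 and 5.61 CPM (WT), then 1466, 1071 and 1907 (KO) (log2 fold change 0.68, SE 1.66, adjusted p = 0.981). Csrp3, which encodes muscle LIM protein, stood at 2260 and 5.80 CPM (WT), then 2000, 1636 and 988 (KO) (0.44, SE 1.68, adjusted p = 0.987). Ldb3, which encodes the Z-disc protein cypher, had 258 and 3.43 CPM (WT), then 236, 229 and 295 (KO). Des, the intermediate filament protein desmin, which smooth muscle also makes, had 821 and 0.26 CPM (WT), then 553, 631 and 1483 (KO). Desmin was thus nearly absent from WT replicate 2. Tcap, which caps titin at the Z-disc, had 101 and 1.66 CPM (WT), then 82.1, 119 and 331 (KO), with KO replicate 3 the high library. Myoz2 had 720 and 0 CPM (WT), then 273, 191 and 178 (KO). Nexn, which encodes the actin-binding protein nexilin, had 53.3 and 0.537 CPM (WT), then 54.2, 72.7 and 27.8 (KO). Mypn, which encodes the titin-linked protein myopalladin, had 18.1 and 0 CPM (WT), then 24.2, 20.3 and 13.5 (KO). WT replicate 1 was the highest library for Myoz2 and lay within the KO range for Nexn and Mypn. Smpx, a small protein of striated muscle, had 1471 and 1.84 CPM (WT), then 556, 249 and 237 (KO).

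Cryab and Xirp2 stood apart. Cryab had 1142 and 153 CPM (WT), then 514, 760 and 697 (KO), so WT replicate 1 was 7.46 times WT replicate 2, the smallest such ratio in this role after that of Xirp2. Xirp2, which encodes an actin-binding protein of intercalated discs, went against the rest of the module. It had 1 read in WT replicate 1 and 353 in WT replicate 2, or 0.038 and 6.12 CPM. The level in WT replicate 2 was 161 times that in WT replicate 1 (95% counting interval 28.7 to 6368). In KO replicates 1, 2 and 3 it stood at 11.7, 3.58 and 10.6 CPM. Its relative Xirp1 had 51.0 CPM in WT replicate 1, 0 in WT replicate 2, and 89.8, 193 and 112 in KO. WT replicate 1, the library with the highest module share, was thus nearly without Xirp2. Xirp2 spans 67446002 to 67526614 of chromosome 2, plus strand (GRCm38).

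Of the calcium handling genes, Pln and Sln were high in different libraries. Pln, which encodes phospholamban, the SERCA2 regulator that prevails in ventricle, stood at 4487 and 1.06 CPM (WT), then 1841, 370 and 218 (KO). Sln, which encodes sarcolipin, the regulator that prevails in atrium, stood at 2.85 and 0.658 CPM (WT), then 0, 613 and 489 (KO). KO replicate 1 had no Sln read among 31358092, and 3 reads there would be 0.0947 CPM. Per kilobase, Sln made up 0.112% of Sln and Pln in WT replicate 1 and 52.5% in WT replicate 2 (exact 95% interval 41.7 to 62.7%, on 38 and 61 reads). It made up 0% in KO replicate 1, 74.6% in KO replicate 2 and 79.9% in KO replicate 3, so the WT libraries differed from each other, as did the KO libraries. The log2 fold changes were 7.73 (SE 3.25, adjusted p = 0.81) for Sln and -1.47 (SE 2.15, adjusted p = 0.954) for Pln, the latter 9.56 without WT replicate 1.

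The pump and the store were less divided. Atp2a2 stood at 1992 and 65.2 CPM (WT), then 505, 1120 and 2371 (KO), where KO replicate 3 was 4.69 times KO replicate 1. Casq2, which encodes the calcium store protein calsequestrin 2, stood at 2168 and 0.0693 CPM (WT), then 1487, 803 and 1980 (KO) (log2 fold change 0.39, SE 2.28, adjusted p = 0.991, and -0.61 without WT replicate 2). Ryr2, which encodes the calcium release channel, had 72.1 and 0.277 CPM (WT), then 35.0, 118 and 72.1 (KO). WT replicate 1 lay within the KO range for all 3 genes but Casq2, where it was the highest. Jph2, which holds the store against the cell membrane, had 687 reads in WT replicate 1 and 2 in WT replicate 2, and 17.0, 54.1 and 71.4 CPM in KO. Trdn and Hrc, partners of calsequestrin and the release channel, had no read in WT replicate 2. Trdn had 58.8 CPM in WT replicate 1 and 42.5 to 76.6 in KO, and Hrc had 13.4 and 7.32 to 14.9.

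The 3 genes of energy supply were highest in WT replicate 1. Ckm, which encodes the muscle creatine kinase, stood at 4376 and 0.052 CPM (WT, 115037 and 3 reads), then 2107, 1362 and 796 (KO). Mb stood at 1371 and 0 CPM (WT), then 922, 81.7 and 5.32 (KO). Fabp3, which encodes the fatty acid carrier of heart, stood at 2087 and 1.99 CPM (WT), then 1254, 647 and 753 (KO). Mb had the widest spread of any member detected in all KO libraries, with KO replicate 1 at 173 times KO replicate 3. The highest KO library was under 2 times the lowest for 16 members and over 5 times for 8. Over the members the median ratio of the highest to the lowest KO library was 2.20, leaving out Sln, which had 0 reads in KO replicate 1. Over all genes tested it was 2.08, with a library at 0 set to 3 reads. The log2 fold changes were -0.62 (SE 2.35, adjusted p = 0.987) for Ckm and -0.24 (SE 1.81, adjusted p = 0.992) for Fabp3, and both turned positive without WT replicate 1, to 14.6 and 8.77.

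Other genes of the same cells gave a like picture, with 0 passing the edgeR quasi-likelihood test (0.0% of all genes). In that test 832 of all 14244 genes had an unadjusted p under 0.05. Of 30 other sarcomere genes 26 were tested, 19 of them with a positive fold change (median 0.57), 2 at an unadjusted p under 0.05, and 17 were lowest in WT replicate 2. Trim55 and Trim63, muscle ring finger ubiquitin ligases, stood at 255 and 187 CPM in WT replicate 1 and at 0 and 0.0173 in WT replicate 2. In KO replicates 1, 2 and 3 Trim55 had 127, 80.7 and 53.2 CPM and Trim63 188, 103 and 96.0. Tpm4, a tropomyosin of non-muscle cells, was lowest in WT replicate 1, at 325 CPM against 1064 in WT replicate 2. All 35 other genes of calcium handling and excitation were tested, 20 with a positive fold change (median 0.28), 1 at an unadjusted p under 0.05, and 24 were lowest in WT replicate 2. Srl, which encodes the sarcoplasmic reticulum protein sarcalumenin, had 956 and 0.381 CPM (WT), then 718, 421 and 627 (KO).

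All 16 cardiomyocyte transcription factors and hormones were tested, 13 with a positive fold change (median 0.48), and 13 were lowest in WT replicate 2. At an unadjusted p under 0.05 there were 2 of the 16, against 832 of all 14244 genes tested. Myocd, a coactivator of serum response factor, stood at 49.4 and 0.0173 CPM (WT), then 53.7, 77.1 and 42.7 (KO). Nppa, which encodes atrial natriuretic peptide, did not follow the atrial light chains. It stood at 1543 and 0.606 CPM (WT), then 345, 43.6 and 495 (KO), so WT replicate 1 was the highest library. Among other atrial genes, Mybphl, a relative of myosin binding protein C, had 0 and 0.26 CPM (WT), then 0.0631, 152 and 173 (KO). Tbx5, a transcription factor of atrium and septum, had 21.8 and 4.42 CPM (WT), then 47.7, 171 and 150 (KO). Irx4, a transcription factor of the ventricle, had 83.8 and 0 CPM (WT), then 23.1, 5.94 and 2.46 (KO). The 14 atrial genes, 3 of them members, gave 10 positive fold changes among 13 tested (median 1.31). The 8 ventricular genes, 4 of them members, gave 1 among 8 (median -1.30), against 49.4% of all genes tested. The values of Myl2, Myl3 and Pln turned positive without WT replicate 1 (7.69, 8.98 and 9.56). KO replicate 1 was led by the ventricular light chains, unlike KO replicates 2 and 3. Mybphl, Tbx5 and Stard10 were highest in KO replicates 2 and 3, as the atrial light chains were. Stard10 had 17.5 and 3.14 CPM (WT), then 1.48, 75.2 and 94.3 (KO). Kcnj3, Gja5 and Nr2f2 were also highest in these libraries, by smaller margins. Irx4 was high in the same libraries as the ventricular light chains. Some other genes of these lists did not follow the light chains. Among them Hey2, a repressor of atrial genes in the ventricle, had 121 and 103 CPM (WT), then 67.8, 22.9 and 63.8 (KO). Kcnd2, a potassium channel, was highest in WT replicate 2 at 5.13 CPM. Of the atrial list, the potassium channel Kcna5 lay between 7.04 and 11.8 CPM in all 5 libraries, and Dhrs3 was highest in WT replicate 2 at 15.97 CPM.

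Muscle of other kinds was checked by its markers. Of 14 skeletal muscle genes 7 were tested, 3 with a positive fold change, and 6 are listed at 0 in every library, the adult fast myosins Myh1, Myh2 and Myh4, Tnnc2, the release channel Ryr1 and the channel Cacna1s. Acta1, the skeletal alpha actin that heart also expresses, stood at 211 and 1.63 CPM (WT), then 62.5, 315 and 2244 (KO), with KO replicate 3 the highest library, and may share reads with Actc1. Myh11, the myosin of mature smooth muscle, reached at most 3.28 CPM. The other smooth muscle genes besides Des summed to 1537 and 682 CPM (WT) and to 1077, 836 and 1647 (KO), which was a much narrower range than that of the module. Genes within that sum went opposite ways between the WT libraries. Acta2 stood at 1264 CPM in WT replicate 1 and 153 in WT replicate 2, and Tagln at 113 and 482.

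Valve cell markers were present in every library, and their sums by list were lowest in the library richest in muscle. The 12 interstitial markers were all detected in each library and summed to 2887 and 7905 CPM (WT) and to 11838, 12031 and 8293 (KO). Vim and Postn led them. For 8 of the 12 every KO level exceeded both WT levels (13.5% of all genes tested). At an unadjusted p under 0.05 there were 7 of the 12, against 832 of all 14244 genes tested, with 0 passing. The 10 markers of valve endothelium and endocardium, led by Tek and Pecam1, summed to 338 and 2729 CPM (WT) and to 1925, 3054 and 2306 (KO). Both sums were lowest in WT replicate 1, where the module took 9.14% of reads. Not every marker followed its sum. Col1a2, Vcan and Npr3 were lowest in WT replicate 2, Tcf21 in KO replicate 1 and Lum in KO replicate 3. In WT replicate 2, where it took 0.0612%, the endothelial sum lay within the KO range and the interstitial sum just under it. That interstitial sum held genes that went opposite ways. In WT replicate 2 Vim (3434 CPM) and Pdgfra (405) lay above every KO library. The 8 markers with every KO level above both WT levels lay below every KO library there, Postn (1002) and Col1a1 (46.3) among them. Vim alone gave 3434 of the 7905 CPM of that sum. The 8 macrophage markers in the table summed to between 170 and 317 CPM, and the 6 adipocyte genes to at most 0.286 CPM. How far the share of muscle sets the levels of valve genes, or the reverse, was not tested.

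**Figure D5:**
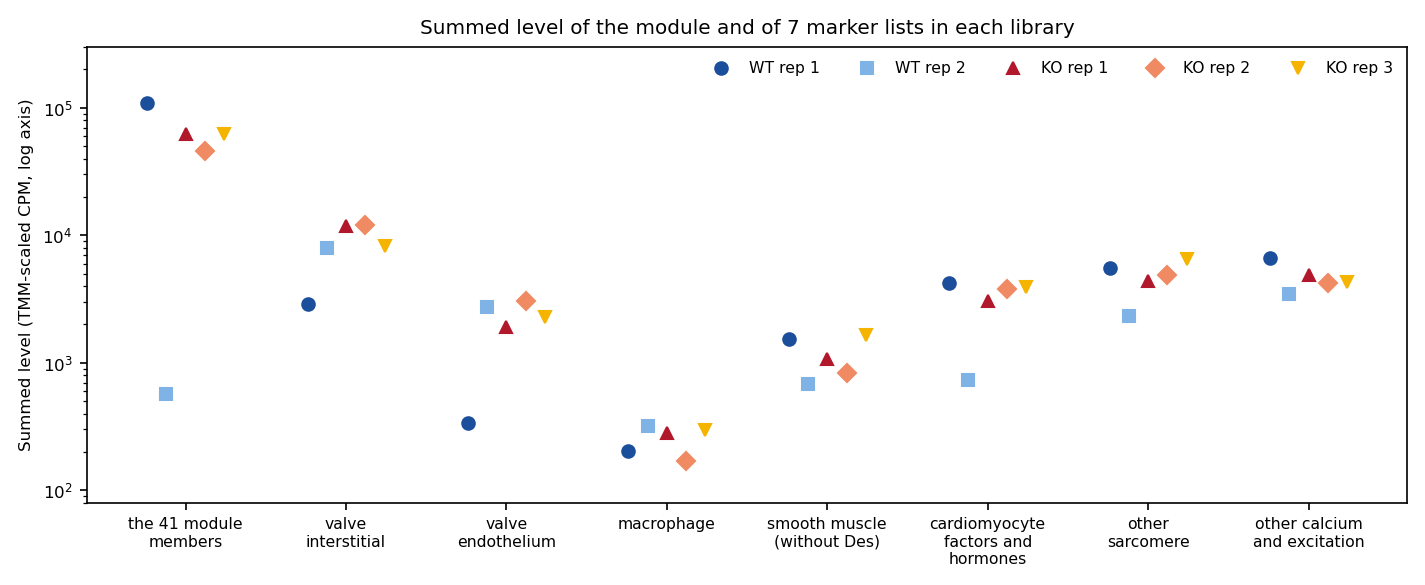
Summed level of the 41 members and of 7 lists of other genes by library (1 point each), as CPM with TMM factors on a log scale. The module spans 571 to 109123 CPM. The interstitial and endothelial lists are lowest in WT replicate 1, at 2887 and 338 CPM, and the macrophage list stays between 170 and 317 CPM.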

How the data were processed

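RNA of mitral leaflets was purified on RNeasy columns with DNase treatment and made into SMART-Seq v4 libraries, per the labels' protocols. The submitters' processing notes list FastQC 0.11.5, cutadapt 1.11, HTSeq, DESeq2, mm10 and GRCm38, and leave the aligner unnamed. The authors deposited raw read counts for 24062 genes in 5 libraries. Per the file headers, the authors' own KO against WT columns hold a mean normalized signal, log2 fold changes and their errors, a test score, and raw and adjusted p-values. The kit does not mark strand, so overlapping genes cannot be told apart.

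The whole table was fitted in R 4.3.3 with edgeR 4.0.16 (filterByExpr, 14244 genes of the 17148 with a read; TMM factors 0.837 to 1.07; robust quasi-likelihood, both sides; Benjamini-Hochberg, threshold 0.05). Standard errors came from the F statistic. DESeq2 1.42.0, limma 3.58.1, other scalings and filters, a length correction, the title code as a term and omission of each library were alternatives. The code was tested on simulated data. Levels between genes are per kilobase of the longest APPRIS principal transcript in GENCODE M21 (GRCm38), or else the longest transcript. A library at 0 was set to 3 reads for ratios, except that Sln was left out of the members' median KO ratio. The members and 14 other gene lists were chosen with earlier results of these data known. Fold changes with errors are given for Ift88, the 4 members with the smallest p, the 4 with the highest mean level and the next 2 by level in each role. In each other list the 2 genes with the highest mean and the 2 with the widest range could be named. The skeletal genes at 0, Kcna5, Dhrs3, Stard10, Kcnj3, Gja5 and Nr2f2 were named after their values were seen. The same holds for Col1a2, Vcan, Npr3, Tcf21 and Lum.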

Additional observations from a re-analysis of the deposited data

How the results depend on the processing

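The 0 calls among members held under every alternative except the fit without WT replicate 1, which leaves 1 WT library. Leaving out 1 library at a time gave 0 to 245 genes and 0 to 29 members called, and a median member log2 fold change of -0.16 to 8.77, with the negative end without WT replicate 2. Over these fits the log2 fold change spanned -0.96 to 9.15 for Actc1, -2.98 to 8.98 for Myl3, -1.51 to 5.67 for Tnni1, -2.84 to 7.69 for Myl2, -0.80 to 11.2 for Mybpc3, -0.87 to 8.34 for Myh7, -0.16 to 4.53 for Tpm1, -1.20 to 8.99 for Tnnc1, -0.55 to 8.02 for Csrp3, -0.31 to 8.01 for Actn2, -2.96 to 9.56 for Pln, -0.61 to 14.2 for Casq2, -1.62 to 14.6 for Ckm and -1.24 to 8.77 for Fabp3. Sln, Myl7, Myh6, Myl4 and Ift88 kept their direction in them. The likelihood-ratio test called 50 genes and DESeq2 219. Actc1 was -0.036 in DESeq2 and with its size factors in edgeR. In limma-voom the member median was 4.27, and Myl3 was 2.89, Tnni1 2.09, Myl2 2.23, Tnnc1 4.11, Pln 3.58, Ckm 8.35 and Fabp3 4.29. With the 3 libraries of the common title code the median was -0.31, and Actc1 was -1.04, Mybpc3 -0.85, Tpm1 -0.50, Csrp3 -0.31, Actn2 -0.54 and Casq2 -0.92. With the length trend removed Mybpc3 was -0.19, Tnnc1 0.50 and Fabp3 0.33. Without its most abundant member the summed level was 45806 CPM in KO replicate 1, 31774 in KO replicate 2 and 44543 in KO replicate 3, by construction. For the other changes the cause was not tested. With the title code as a term, added after seeing the data, Tnni1 was 0.47, Myl2 0.18, Tnnc1 0.65, Ckm 0.67 and Fabp3 0.85, and no call changed. No paired analysis was possible because the replicate numbers are names given in order of deposit, and the titles of WT and KO libraries have a single number in common, 9, under different codes.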

Other observations

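Markers of some other kinds of cells also differed between libraries. The 5 epicardial and mesothelial genes summed to 4.91 CPM in WT replicate 1, 10.3 in WT replicate 2 and 6.57 in KO replicate 1. In KO replicate 2 they reached 194 CPM and in KO replicate 3 27.7. The 10 pacemaker and conduction genes summed to 163 and 62.3 CPM in the WT libraries and to 73.6, 205 and 141 in the KO libraries. Alas2, which encodes the heme synthesis enzyme of red cell precursors, stood at 92.6 CPM in WT replicate 1, 2.60 in WT replicate 2, 34.7 in KO replicate 1, 8.28 in KO replicate 2 and 0 in KO replicate 3, while the 4 globin genes of that list were listed at 0 in every library. None of these genes passed the edgeR quasi-likelihood test, with 2 of the 14 tested at an unadjusted p under 0.05. The part of these cells in the muscle levels was not tested.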
